A study of Mus musculus with 12 samples.

Results

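The genes described here are 39 genes of DNA replication and mitosis, taken from the tables by gene symbol, with no value used in the rule: 19 act in S phase, when DNA is copied, and 20 in G2 and M phase, when the cell prepares to divide and divides. The list itself was chosen with earlier results of these data known. All 39 were among the 17875 genes of each deposited table, and all 39 were among the 13453 genes with enough reads to be tested. RNA sequencing of subcutaneous colorectal tumours in mice gave 12 libraries in 4 groups of 3. Every group carried a tumour. The control group had the tumour alone, the stress group also had chronic stress, and the low-dose and high-dose groups had the tumour, chronic stress and Xiaochaihu decoction, a herbal mixture. No group received the decoction without stress. The tumour cell line, the mouse strain and age, the stress procedure, the amounts of decoction and whether each library came from its own animal are not given in the sources used here, so a p-value here speaks of differences among libraries, some of which may be technical.

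Total counts ran from 16734741 to 17950195 per library, and the members had between 179 and 18532 estimated reads per library. Of 9 colorectal epithelial markers in the tables, 7 (Cdx1, Cldn7, Epcam, Krt18, Krt20, Krt8 and Vil1) lay below 1 CPM (read counts scaled to library size) in every library, so the epithelial identity of the tumour cells was not borne out by these markers. Transcripts of other tissues differed by library. Skeletal muscle transcripts summed to 244 CPM in control replicate 1, 212 in low-dose replicate 3 and 520.1 in high-dose replicate 2 against 2.91 to 37.7 elsewhere. Erythroid transcripts summed to 286 in high-dose replicate 1 against 8.25 to 47.9 elsewhere, and fibroblast transcripts ranged from 4816 to 19174. The data are from bulk tissue, in which fewer dividing cells and less RNA per dividing cell cannot be told apart.

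A cell that enters S phase loads and fires the MCM helicase at replication origins and makes the nucleotides and clamp that the DNA polymerases need. Many of these genes are switched on by E2F transcription factors once cyclin D and cyclin E kinases have inactivated the retinoblastoma proteins. Genes for the mitotic cyclins, spindle motors and checkpoint proteins follow later, and are held back in resting cells by the DREAM complex, which binds a promoter element called the cell cycle genes homology region (CHR), and switched on by the factors B-MYB and FOXM1. Both sets are commonly read as a measure of how much of a tumour is cycling.

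The promoters of the members were searched for short words that these factors are known to bind. As examples, 5 are printed that were picked because they hold such words. The sequences are from RefSeq on GRCm38.p6, the build the authors used, and each line gives the 250 bases before the annotated start site, 5' to 3' on the gene's strand. In the S phase genes Mcm6 (chr1:128359706-128359955, minus strand) and Mcm5 (chr8:75109259-75109508, plus strand), both subunits of the replicative helicase, capitals mark E2F words. In the mitotic genes Top2a (chr11:99024190-99024439, minus strand), Cdk1 (chr10:69352913-69353162, minus strand) and Mki67 (chr7:135716380-135716629, minus strand), capitals mark the CHR word.
Mcm6: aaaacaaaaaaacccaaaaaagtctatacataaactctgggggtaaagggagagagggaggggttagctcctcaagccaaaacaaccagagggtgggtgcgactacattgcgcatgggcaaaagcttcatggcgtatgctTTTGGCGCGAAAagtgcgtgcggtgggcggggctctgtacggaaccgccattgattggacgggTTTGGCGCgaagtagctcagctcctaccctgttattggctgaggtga
Mcm5: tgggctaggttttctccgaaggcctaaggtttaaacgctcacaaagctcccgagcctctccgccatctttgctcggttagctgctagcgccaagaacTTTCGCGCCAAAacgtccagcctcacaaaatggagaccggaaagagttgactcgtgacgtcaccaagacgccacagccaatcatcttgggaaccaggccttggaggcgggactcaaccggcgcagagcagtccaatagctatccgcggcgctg
Top2a: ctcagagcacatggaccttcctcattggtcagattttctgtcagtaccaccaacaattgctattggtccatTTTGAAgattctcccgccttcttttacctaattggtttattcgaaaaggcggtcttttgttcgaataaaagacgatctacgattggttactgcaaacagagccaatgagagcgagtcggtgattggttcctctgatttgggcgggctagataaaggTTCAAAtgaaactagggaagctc
Cdk1: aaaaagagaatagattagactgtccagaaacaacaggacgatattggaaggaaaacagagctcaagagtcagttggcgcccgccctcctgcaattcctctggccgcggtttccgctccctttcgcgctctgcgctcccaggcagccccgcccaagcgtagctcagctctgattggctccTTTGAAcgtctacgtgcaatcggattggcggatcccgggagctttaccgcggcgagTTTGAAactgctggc
Mki67: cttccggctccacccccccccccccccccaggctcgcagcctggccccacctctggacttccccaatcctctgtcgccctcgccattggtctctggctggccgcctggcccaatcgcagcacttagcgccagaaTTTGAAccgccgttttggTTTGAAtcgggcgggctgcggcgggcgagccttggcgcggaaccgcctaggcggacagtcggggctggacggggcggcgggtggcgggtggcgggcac

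The E2F words searched were TTTCCCGC, TTTGGCGC, TTTCGCGC and TTTGCCGC, the CHR word was TTTGAA, and the CCAAT word, which the factor NF-Y binds, is spelled by its name, each on both strands. In the minus direction the CHR word reads TTCAAA, as in the second capital run of Top2a. The capital runs of 12 letters in Mcm6 and Mcm5 each hold an E2F word on either strand, overlapping by 4 letters. Windows of 300 bases, from 250 before to 50 after an annotated start, were found for 31 of the 39 members (15 S phase, 16 G2 and M phase). There were 33 windows, because Mcm7 and Fen1 had a further window each. A gene was counted if any of its windows held the word, and those further windows held no E2F or CHR word. The windows of Cdc6, E2f1 and Aurka, and the further windows of Mcm7 and Fen1, lay wholly inside the gene, at an internal start. Promoters of Mcm4, Gins1, Gins2, Ccne2, Aurkb, Kif20a, Tpx2 and Ccna2 were not analysed here.

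An E2F word stood in a window of 6 of the 15 S phase genes (40%), namely Mcm3, Mcm5, Mcm6, Mcm7, Cdc6 and Cdt1. An E2F word also stood in 1 of the 16 G2 and M phase promoters (6.25%), that of Cdk1. Of all tested genes with a promoter window 4.56% held one, and of all genes with such a window 2.61%. The CHR word stood in 11 of 16 G2 and M phase promoters (68.8%), those of Mki67, Top2a, Cdk1, Ccnb2, Cenpf, Bub1b, Aurka, Plk1, Kif11, Cdc20 and Ube2c. It stood in a window of 3 of 15 S phase genes (20%), namely Mcm2, Cdc45 and Fen1. The corresponding shares were 14.7% of tested genes and 20.2% of all genes. All 11 of those G2 and M phase promoters also held a CCAAT word, a pair found in 7.32% of tested genes, and in 0 members did the CHR and CCAAT words overlap. Further genes of each phase, which are not members, gave like shares: an E2F word in 12 of 35 S phase genes (34.3%) and 4 of 42 G2 and M phase genes (9.52%), and a CHR word in 7 of 35 (20%) and 29 of 42 (69.0%). These matches describe letters in a window and show no binding.

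**Figure D1:**
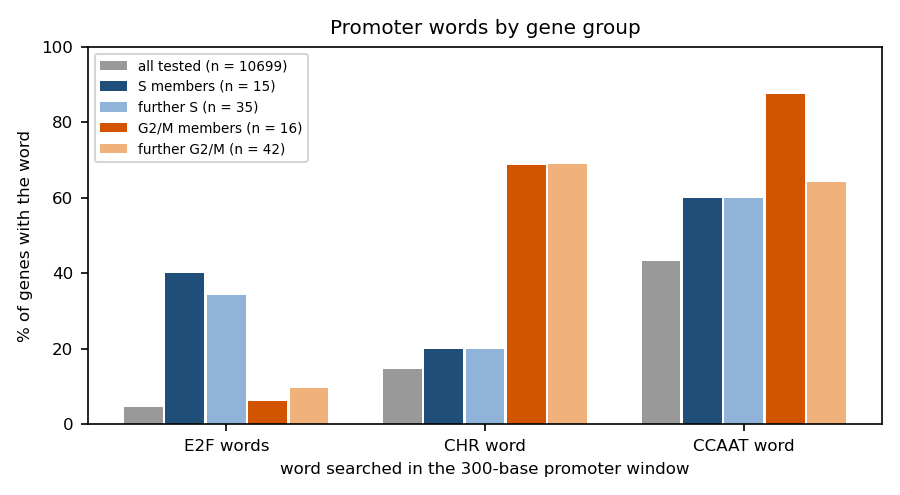
Share of genes (vertical axis, %) whose 300-base promoter window holds an E2F, CHR or CCAAT word, for all tested genes, the members and further genes of each phase. E2F words stand highest in the S phase bars (40% and 34.3%) and the CHR word in the G2 and M phase bars (68.8% and 69.0%).

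The members were expressed well above the typical gene. In TPM, a scale corrected for gene length, the mean over the 12 libraries ran from 15.4 to 516 with a median of 85.9 over the members, against a median of 20.7 over all tested genes. Among the S phase genes the highest level was that of Pcna, the sliding clamp that holds DNA polymerase, at 516 TPM, and the lowest were Ccne1 and Ccne2, the cyclins E, both at 15.4 TPM. The 6 helicase subunits lay at 259.8 TPM for Mcm6, 160.2 for Mcm3, 159 for Mcm7, 133 for Mcm5, 103 for Mcm2 and 85.9 for Mcm4. Among the G2 and M phase genes the highest level was that of Ube2c, a ubiquitin-conjugating enzyme of the anaphase-promoting complex, at 356 TPM, followed by Top2a, the topoisomerase that untangles sister chromosomes, at 320.2 TPM. Birc5, or survivin, of the chromosomal passenger complex stood at 199.5 TPM, and Mki67, the gene of the Ki-67 protein that coats mitotic chromosomes and is stained in pathology, at 121 TPM.

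Library by library, the members varied largely as one block, and the block did not follow the groups. The ratio of a member's highest to its lowest library in CPM ran from 1.48 to 2.41 with a median of 1.81, against a median of 1.65 over all tested genes. In 3 libraries, stress replicate 2, low-dose replicate 1 and high-dose replicate 1, not 1 of the 39 members was above its own median over the 12 libraries. In stress replicate 3 and high-dose replicate 2, 36 of 39 were above it, and in low-dose replicate 3, 35 of 39. The control libraries had 29, 34 and 23 above it. Low-dose replicate 1 held the lowest value of 24 members, and low-dose replicate 3 the highest of 21, among them 16 of the 19 S phase genes. Stress replicate 3 held the highest value of 10 of the 20 G2 and M phase genes. The low and the high libraries thus lay side by side within the same treated group.

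**Figure D2:**
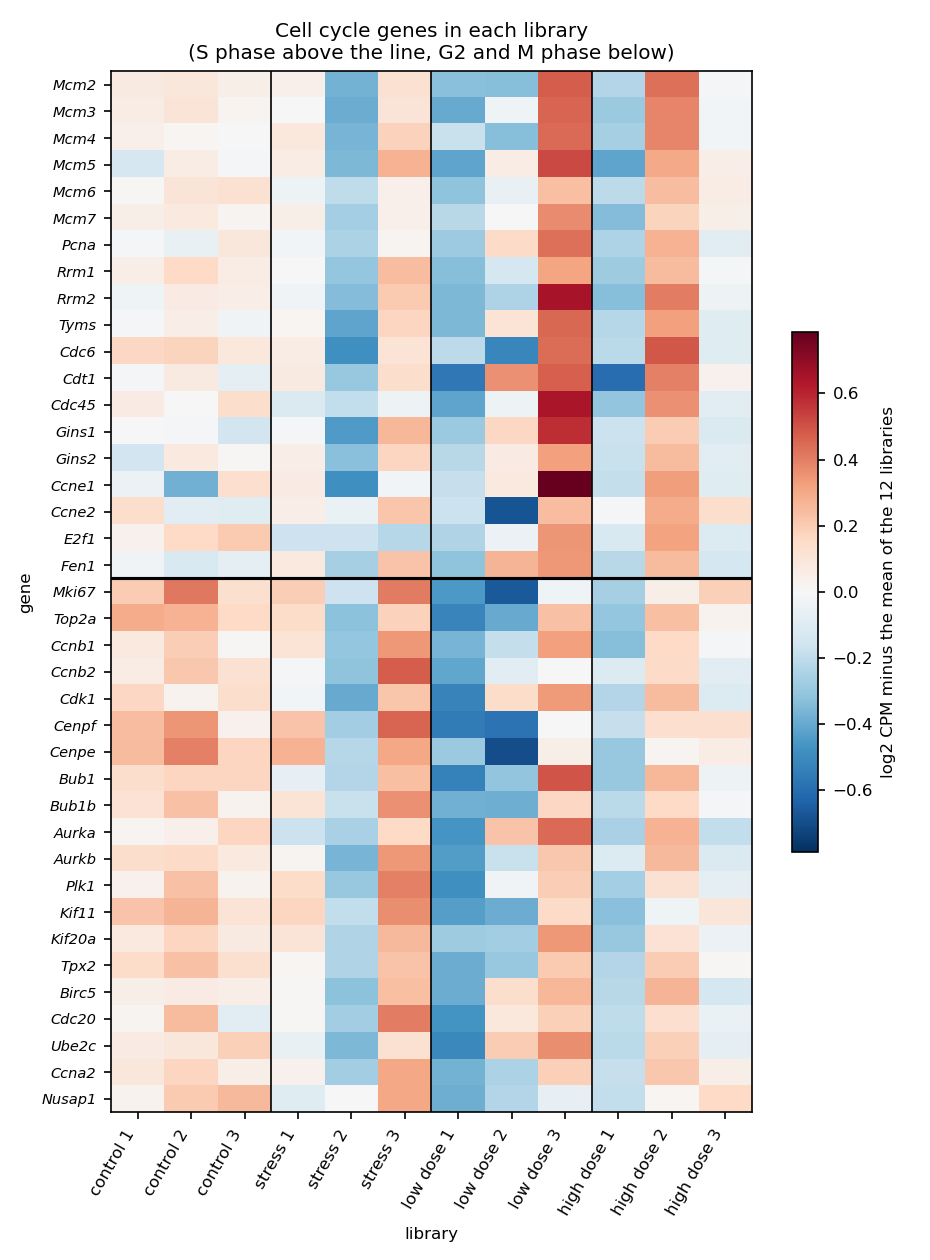
Each member (row) in each library (column), coloured by its log2 CPM minus the gene's mean over the 12 libraries, S phase genes above the thick line. Stress replicate 2, low-dose replicate 1 and high-dose replicate 1 are blue nearly throughout, and low-dose replicate 3 and high-dose replicate 2 red, most of all in S phase genes.

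A few members show the pattern in single values. Mcm2, a helicase subunit, stood at 189.9, 192 and 186 CPM in the controls, 186, 139.6 and 196 in the stress group, 144, 143 and 252 at the low dose and 153, 244 and 179 at the high dose. Rrm2, the regulated subunit of the enzyme that makes deoxynucleotides, stood at 116, 124 and 123 CPM in the controls, 116, 93.5 and 136 under stress, 92.5, 100.1 and 185 at the low dose and 93.9, 156 and 115 at the high dose. Both genes were even across the controls, low in 1 stress library and highest in the third low-dose library. Top2a stood at 1085, 1073 and 991 CPM in the controls, 981, 710.1 and 1005 under stress, 619, 673 and 1040.4 at the low dose and 718, 1045 and 905 at the high dose. Cdk1, the kinase that drives entry into mitosis, stood at 116, 106 and 114 CPM in the controls, 102, 78.5 and 120.3 under stress, 71.8, 114 and 131 at the low dose and 88.3, 123 and 96.1 at the high dose. The groups overlapped for each of these 4 genes in every comparison made here.

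The controls were the most alike. The median over the S phase genes of the within-group SD of log2 CPM was 0.06 in the controls, 0.26 under stress, 0.43 at the low dose and 0.27 at the high dose, and over the G2 and M phase genes it was 0.08, 0.29, 0.35 and 0.21. Over all tested genes it was 0.10, 0.16, 0.27 and 0.17, so that the members varied less than the median gene among controls and more among the libraries of the other groups. A phase score, the mean over its genes of log2 CPM centred on the 12 libraries, put the stress replicates at 0.01, -0.31 and 0.12 for S phase and at 0.06, -0.26 and 0.30 for G2 and M phase. The low-dose replicates stood at -0.30, -0.06 and 0.45 for S phase and at -0.43, -0.21 and 0.20 for G2 and M phase. The high-dose replicates stood at -0.25, 0.32 and -0.04, and at -0.24, 0.16 and -0.01. The controls stayed between 0.01 and 0.03 for S phase and between 0.10 and 0.21 for G2 and M phase.

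**Figure D3:**
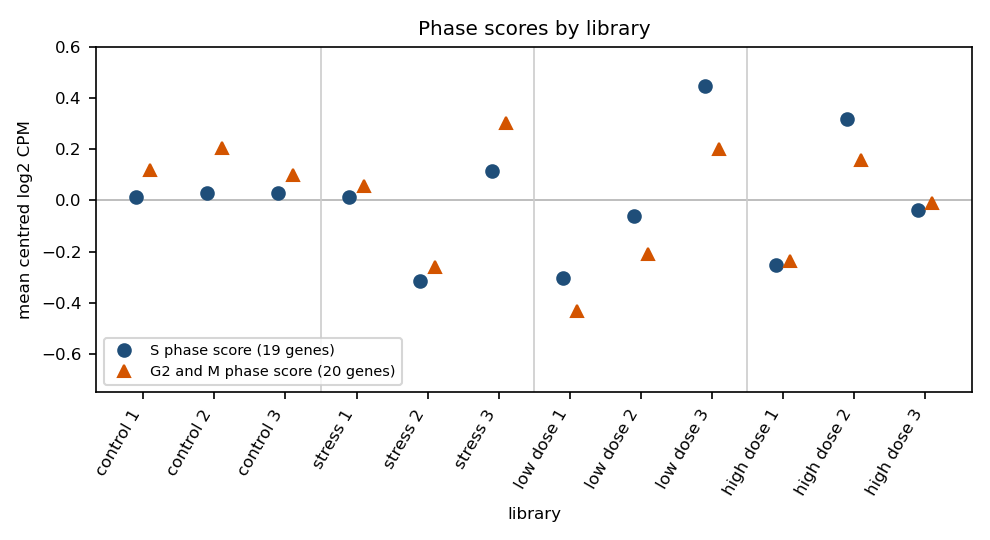
S phase score (circles) and G2 and M phase score (triangles) of each library, in mean centred log2 CPM. The controls are close together, and the stress, low-dose and high-dose groups each hold a library far below 0 and one well above it.

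Markers of other cell types varied with the block in part. The 2 decoction libraries with the lowest members had the highest fibroblast sums, 19174 CPM in low-dose replicate 1 and 17729 in high-dose replicate 1. The 2 decoction libraries with the highest members had the lowest, 5771 in low-dose replicate 3 and 4816 in high-dose replicate 2. Most of these sums was Col3a1, at 16653 CPM in low-dose replicate 1 and 3436 in replicate 3, and the list did not move as one: Col1a1 (333 against 765 CPM), Col1a2 (1099 against 1184) and Lum (8.37 against 9.51) were higher in low-dose replicate 3, and Col1a1 was higher there than in any other library. Summed macrophage markers were highest in those same low libraries, at 2596 and 2289 CPM against 1141 to 1849 elsewhere. In the stress group the fibroblast sums went otherwise: stress replicate 2, with low members, had 11116 CPM and stress replicate 3, with high members, 14245. The muscle-rich low-dose replicate 3 and high-dose replicate 2 were also the libraries with the highest S phase scores, while control replicate 1, likewise muscle-rich, had an S phase score of 0.01. All 7 fibroblast and all 8 macrophage markers were measured and none was below 1 CPM in every library. The part of tissue composition in the members' values was not tested.

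Chronic stress was compared with control to see whether the stressed tumours differed in these genes. By the edgeR quasi-likelihood test with Benjamini-Hochberg adjustment over all genes tested, 0 of 39 members passed an adjusted p of 0.05, and 0% of all tested genes did. DESeq2 called 0 members and 0.00743% of genes, and limma-voom none. At an unadjusted p under 0.05 the count of members was also 0, where 1.1% of genes were higher and 1.75% lower. Most fitted values lay slightly below control: 15 of 19 S phase genes and 18 of 20 G2 and M phase genes had a log2 fold change below 0, against 48.3% of all tested genes below and 51.7% above. The medians were -0.06 for S phase and -0.08 for G2 and M phase, against 0.01 over all tested genes, and the SE of a single member was 0.13 to 0.27, so both medians were smaller than the SE of any 1 member. Summed fibroblast markers lay at 6396 to 8542 CPM in the controls and 11104 to 14245 under stress, without overlap. Most of that sum was Col3a1, and 6 of the 7 markers had a log2 fold change above 0. So had 9 of 9 lymphocyte markers (median 0.51) and 8 of 8 macrophage markers (median 0.31), while 12 of 12 muscle markers lay below 0 (median -2.80). These shifts were not shared by all libraries. Lymphocyte sums were 135, 94.9 and 32.0 CPM under stress against 57.1 to 59.6 in the controls. Macrophage sums were 1750, 1849 and 1141 against 1161 to 1321. Muscle sums were 244, 5.06 and 21.4 in the controls and 37.7, 2.91 and 4.01 under stress. None of these markers passed in edgeR, and their part in the members' values was not tested. Without stress replicate 2, a library in which no member was above its own median, both medians were 0.07. The S phase median was 0.05 with the skeletal muscle score as a covariate.

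E2f1, the founding E2F activator, had the smallest p among the 39 members. It stood at 58.7, 64.1 and 66.2 CPM in the controls and 51.3, 51.3 and 49.1 under stress, and the groups did not overlap. Its log2 fold change was -0.32 (SE 0.15), and the unadjusted p 0.0585. Cdc45, which joins the helicase at the fork, was the other member whose groups did not overlap, at 62.9, 60.0 and 66.4 CPM against 55.7, 52.7 and 58.5, with a log2 fold change of -0.18 (SE 0.23). These 2 members of 39, both lower under stress, compare with 7.02% of all tested genes lower without overlap and 7.08% higher, a share no greater than the background.

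Others of the smallest p values were the origin licensing factor Cdc6 at -0.23 (SE 0.25), Mcm6 at -0.14 (SE 0.15), Top2a at -0.22 (SE 0.21), Ube2c at -0.20 (SE 0.20), the spindle assembly factor Tpx2 at -0.15 (SE 0.17) and the kinase Aurka at -0.16 (SE 0.21), all as log2 fold changes. The proliferation marker Mki67 was at -0.09 (SE 0.19), Pcna at -0.09 (SE 0.18), Mcm2 at -0.12 (SE 0.23), Ccnb1, a mitotic cyclin, at -0.02 (SE 0.20), Cdk1 at -0.16 (SE 0.21) and Ccne1 at -0.04 (SE 0.25). For all of them the adjusted p was 0.9999.

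**Figure D4:**
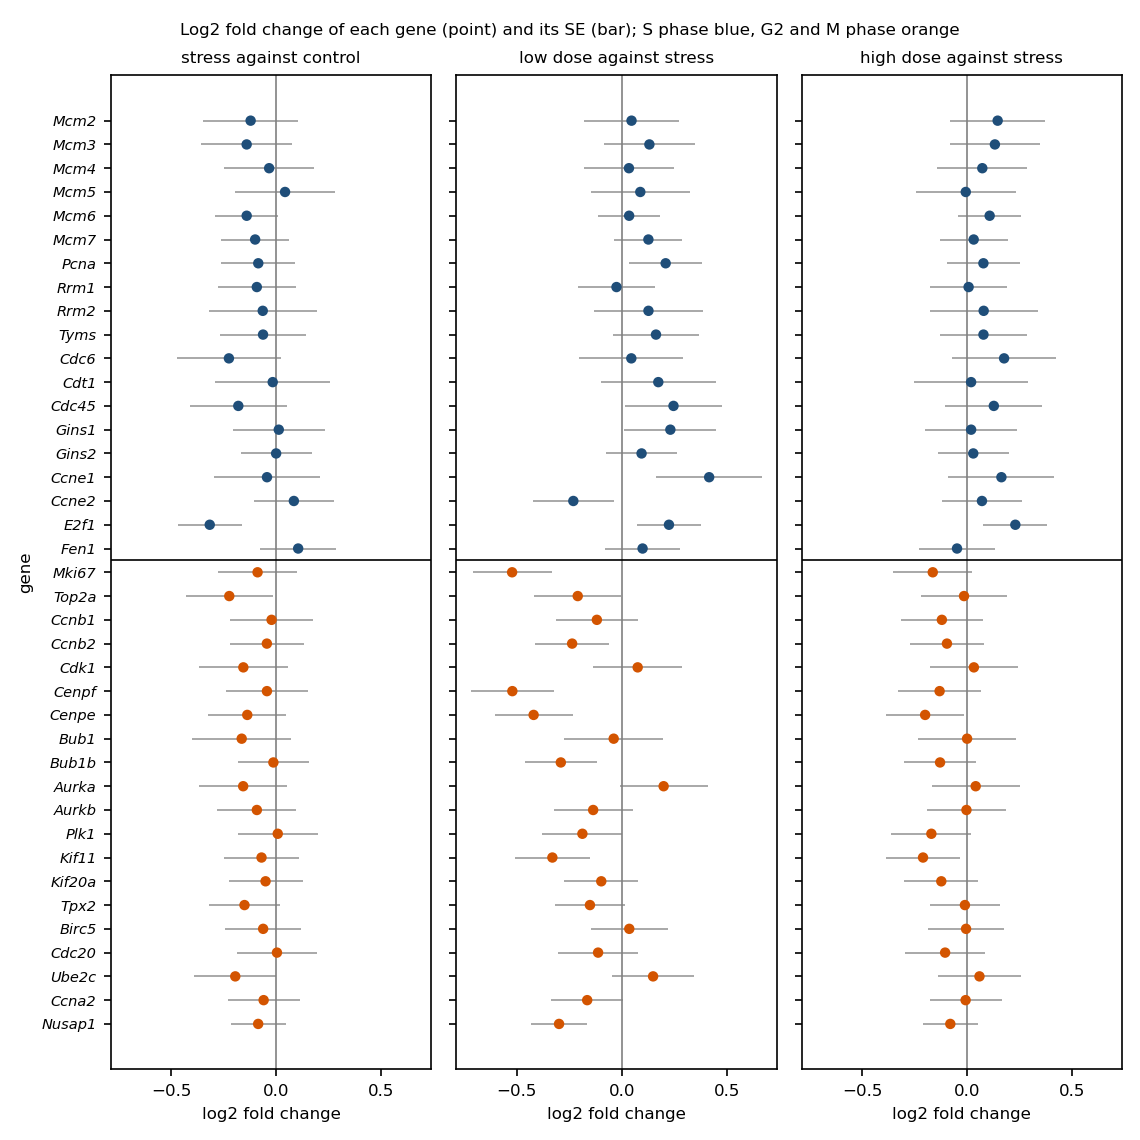
Fitted log2 fold change of each member (point) with its SE (bar) for stress against control, low dose against stress and high dose against stress, S phase genes above the line in blue and G2 and M phase genes below it in orange. In the 2 decoction panels most blue points lie right of 0 and most orange points left of it, with the longest distances for Mki67 and Cenpf (both -0.52) at the low dose.

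The low dose was compared with stress to see whether stressed tumours under the decoction differed from stressed tumours alone. The phases lay on opposite sides of 0: 17 of 19 S phase genes had a log2 fold change above 0, with a median of 0.13, and 16 of 20 G2 and M phase genes had one below 0, with a median of -0.16. Of all tested genes 49.9% lay above 0 and 50.1% below, with a median of -0.00. In edgeR 0 of 39 members and 0% of genes passed the adjusted threshold. DESeq2 called 0 members and 0.706% of genes, and limma-voom none of either. Without low-dose replicate 1 edgeR called 1244 genes (9.12%) and still 0 members. At an unadjusted p under 0.05 there were 4 members, all lower and all of G2 and M phase, where 6.55% of tested genes were lower and 6.8% higher. No member's groups failed to overlap, against 6.57% of genes lower and 5.37% higher without overlap. The S phase median rested on low-dose replicate 3: without it the median was -0.10 and that of G2 and M phase -0.35. Without low-dose replicate 1 the S phase median was 0.29, and the set of members with an unadjusted edgeR p under 0.05 changed. Mki67 stayed in it and was the only lower one, and Aurka, Ube2c, E2f1, Pcna, Cdc45 and Ccne1 were higher. Their adjusted p in edgeR was 0.125 to 0.171. The share of all tested genes under that unadjusted threshold was not tallied for this setting, but was at least the 9.12% above. These members are therefore not read as an excess. Without stress replicate 3 the G2 and M phase median was 0.02, and on the log2(TPM + 1) scale the S phase median was -0.08, where the median of all genes was itself -0.14.

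With all 12 libraries, the 4 members with an unadjusted edgeR p under 0.05 were Mki67, Cenpf, Cenpe and Nusap1. Mki67 stood at 696, 544 and 808 CPM under stress and at 444, 385 and 596 at the low dose. It was lowest in low-dose replicates 1 and 2, and low-dose replicate 3 lay above stress replicate 2. Its log2 fold change was -0.52 (SE 0.19, edgeR adjusted p 0.316). Cenpf, a kinetochore protein, stood at 226, 159.6 and 266 CPM under stress and 132, 129 and 193 at the low dose, with -0.52 (SE 0.20, edgeR adjusted p 0.320). Cenpe, a motor that carries chromosomes to the spindle equator, stood at 176, 125 and 179.6 CPM and 119, 89.7 and 150.2, with -0.42 (SE 0.19, edgeR adjusted p 0.363). Nusap1, a microtubule-binding protein of the spindle, stood at 90.9, 96.8 and 119 CPM and 74.3, 82.7 and 92.7, with -0.30 (SE 0.13, edgeR adjusted p 0.363).

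Gene length moved with these values. Cenpf, Mki67 and Cenpe were the longest G2 and M phase members, with lengths of 10319, 9027 and 7536 bases recovered from the tables. For each library, the deviation of log2 CPM from the gene's mean over the 12 libraries was set against length. The relation was strongest in low-dose replicate 2, with a Spearman rho of -0.59 across genes against -0.23 to 0.39 in the other libraries. With each library's length trend removed the log2 fold changes were -0.25 for Mki67, -0.21 for Cenpf and -0.19 for Cenpe, and -0.29 for Nusap1, whose length of 2607 bases was near the median of the members. With those trends removed 0 members had an unadjusted edgeR p under 0.05, while 17 of 19 S phase genes were above 0 and 17 of 20 G2 and M phase genes below. The shares of all tested genes were not tallied for that setting, so these counts have no background beside them. Without low-dose replicate 2 the values were -0.38 for Mki67, -0.41 for Cenpf, -0.24 for Cenpe and -0.29 for Nusap1.

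On the S phase side the smallest p was that of Ccne1, which with its kinase starts S phase, at 15.2, 10.4 and 14.4 CPM under stress and 12.9, 15.4 and 25.2 at the low dose. Its log2 fold change was 0.42 (SE 0.25, edgeR adjusted p 0.472), and low-dose replicates 2 and 3 lay above every stress library, replicate 2 by a small margin. The other cyclin E gene, Ccne2, had the opposite sign at -0.23 (SE 0.19, edgeR adjusted p 0.601), with 23.4, 21.8 and 26.3 CPM under stress and 20.1, 14.1 and 26.7 at the low dose. E2f1 was at 0.22 (SE 0.15, edgeR adjusted p 0.519) and Pcna at 0.21 (SE 0.18, edgeR adjusted p 0.604). Pcna stood at 285, 243 and 294 CPM under stress and 237, 322 and 391 at the low dose, so that 1 low-dose library was under and 2 were over all stress libraries. Mcm2 at 0.05 (SE 0.23), Top2a at -0.21 (SE 0.21), Ccnb1 at -0.12 (SE 0.20) and Cdk1 at 0.08 (SE 0.21) each differed by about their SE or less.

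The high dose was compared with stress in the same way, and shares its stress libraries with the comparison above. In edgeR 0 of 39 members and 0% of tested genes passed, and 0 members had an unadjusted p under 0.05, where 0.825% of genes were higher and 0.595% lower. DESeq2 and limma-voom called none of either. Again 17 of 19 S phase genes lay above 0, with a median of 0.08, against 48.9% of genes, and 17 of 20 G2 and M phase genes below 0, with a median of -0.09, against 51.1%. The S phase median was -0.09 without high-dose replicate 2, and the G2 and M phase median was 0.09 without stress replicate 3.

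E2f1 was the member whose high-dose and stress groups did not overlap, against 2.43% of genes higher without overlap and 3.32% lower. It stood at 52.9, 71.5 and 53.4 CPM at the high dose, above the 51.3, 51.3 and 49.1 CPM of the stress group, with a log2 fold change of 0.23 (SE 0.15, edgeR adjusted p 0.9998). High-dose replicates 1 and 3 lay just above the stress libraries, and replicate 2 lay above the controls. Without replicate 2 the log2 fold change was 0.07. Mcm6 was at 0.11 (SE 0.15), Cdc6 at 0.18 (SE 0.25) and Ccne1 at 0.16 (SE 0.25). On the mitotic side the spindle motor Kif11 was at -0.21 (SE 0.18), Cenpe at -0.20 (SE 0.19), the mitotic kinase Plk1 at -0.17 (SE 0.19) and Mki67 at -0.16 (SE 0.19). Pcna at 0.08 (SE 0.18), Mcm2 at 0.14 (SE 0.23), Top2a at -0.02 (SE 0.21), Ccnb1 at -0.12 (SE 0.20) and Cdk1 at 0.03 (SE 0.21) lay within their SE of 0.

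Between the doses the G2 and M phase genes were more often higher at the high dose, 14 of 20 with a median of 0.13, and the S phase genes lower, 11 of 19 with a median of -0.07, where 50.8% of all tested genes were higher and 49.2% lower. In edgeR 0 members and 0% of genes passed, with 0 members at an unadjusted p under 0.05, where 2.75% of genes were higher and 3.64% lower. DESeq2 called 0 members and 0.0372% of genes and limma-voom none. Without low-dose replicate 1 edgeR called 99 genes (0.726%) and 0 members. No member's groups failed to overlap, against 4.16% of genes higher and 3.18% lower. Cenpf was at 0.39 (SE 0.20, edgeR adjusted p 0.758), Mki67 at 0.36 (SE 0.19, edgeR adjusted p 0.758), Nusap1 at 0.22 (SE 0.13) and Cenpe at 0.22 (SE 0.19). With length trends removed the G2 and M phase median was 0.08. Ccne2 was at 0.30 (SE 0.19), Ccne1 at -0.25 (SE 0.25), the origin factor Gins1 at -0.21 (SE 0.22) and the flap nuclease Fen1 at -0.15 (SE 0.18). Pcna was at -0.13 (SE 0.18), Mcm2 at 0.10 (SE 0.23), Top2a at 0.19 (SE 0.21), Ccnb1 at -0.00 (SE 0.20) and Cdk1 at -0.04 (SE 0.21). Without low-dose replicate 3 the S phase median was 0.18, and without low-dose replicate 1 the G2 and M phase median was 0.00.

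The balance of the phases set the low-dose libraries apart from the control and stress libraries. The S phase score minus the G2 and M phase score was -0.11, -0.18 and -0.07 in the controls, -0.04, -0.05 and -0.19 under stress, 0.13, 0.15 and 0.25 at the low dose and -0.02, 0.16 and -0.02 at the high dose. All low-dose libraries lay above all control and stress libraries, although low-dose replicate 1 had the lowest and replicate 3 the highest S phase score of their group. The high-dose libraries also lay above the control and stress libraries, by a narrow margin for replicates 1 and 3, and only high-dose replicate 2 lay inside the low-dose range. The pooled within-group SD was 0.08 for the balance against 0.26 for the S phase score and 0.24 for the G2 and M phase score. Among the controls alone the SD was 0.06 for the balance, 0.01 for the S phase score and 0.06 for the G2 and M phase score. The further genes of the phases, 44 and 50 that are not members, gave -0.07, -0.11 and -0.05 in the controls, -0.04, -0.03 and -0.11 under stress, 0.12, 0.07 and 0.07 at the low dose and 0.05, 0.11 and -0.01 at the high dose. The balance was looked at after the values of the phases were seen, and no test was made of it. As a difference of the median log2 fold changes it was 0.28 for low dose against stress, and stayed between 0.21 and 0.32 with any 1 library left out and between 0.24 and 0.29 under 11 other settings, removal of length trends (0.27) and omission of the muscle-rich libraries (0.25) among them.

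**Figure D5:**
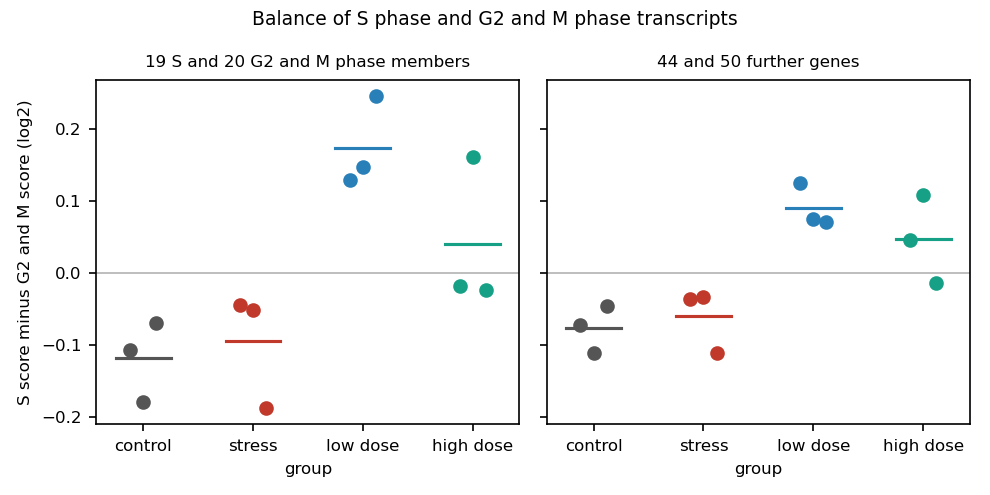
S phase score minus G2 and M phase score (log2) of each library by group, for the members at left and for further genes of each phase at right, with a bar at each group's mean. The low-dose libraries lie between 0.13 and 0.25 at left, above all control and stress libraries, and between 0.07 and 0.12 at right.

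Other genes of the cycle came from lists of further S phase genes, further G2 and M phase genes, G1 drivers and brakes. None of the 44, 50, 9 and 17 tested passed in edgeR in any of the 4 comparisons. Further S phase genes were above 0 in 9 of 44 for stress against control (median -0.09), 25 for low dose against stress (0.05), 32 for high dose against stress (0.06) and 28 for high against low dose (0.03). Further G2 and M phase genes were above 0 in 4 of 50 (-0.12), 11 (-0.15), 12 (-0.06) and 37 (0.10) in the same order. The medians of the 9 G1 drivers lay between -0.01 and 0.04 and those of the 17 brakes between -0.05 and 0.03.

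Of the regulators, Ccnd1, the cyclin D that answers growth signals, stood at 1088, 1102 and 1087 CPM in the controls, 963, 844 and 908 under stress, 765, 810.1 and 1248 at the low dose and 802, 1267 and 1034 at the high dose. Every stress library was below every control, as in 7.02% of all tested genes. The 2 libraries with the highest S phase scores were the highest in Ccnd1. Its log2 fold changes were -0.27 for stress against control, 0.06 for low dose against stress, 0.19 for high dose against stress and 0.14 for high against low dose. Cdkn1a, the p21 inhibitor induced by p53, stood at 65.9, 60.3 and 73.1 CPM in the controls, 45.8, 75.6 and 41.6 under stress, 56.5, 90.9 and 114 at the low dose and 52.1, 82.7 and 56.5 at the high dose. It was high in low-dose replicate 3, where the S phase genes were high too, and its log2 fold changes were -0.29 for stress against control, 0.68 for low dose against stress, 0.23 for high dose against stress and -0.45 for high against low dose. For low dose against stress its SE was 0.28 and its adjusted p in edgeR 0.350. Cdkn1b, the p27 inhibitor of quiescent cells, was at 0.00 for stress against control, -0.08 for low dose against stress, -0.03 for high dose against stress and 0.05 for high against low dose.

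Genes of the activators named above were measured as well. Foxm1, which activates G2 and M phase genes, stood at 158, 137 and 184 CPM under stress, 107, 129 and 195 at the low dose and 135, 199 and 149 at the high dose, with log2 fold changes of -0.12 for stress against control, -0.15 for low dose against stress, 0.01 for high dose against stress and 0.16 for high against low dose. Mybl2, the gene of B-MYB, stood at 77.4, 55.5 and 85.5 CPM under stress, 58.9, 68.9 and 127 at the low dose and 63.4, 106 and 74.1 at the high dose, with -0.13 for stress against control, 0.22 for low dose against stress, 0.15 for high dose against stress and -0.07 for high against low dose. Both were highest in low-dose replicate 3 or high-dose replicate 2, as were 16 and 3 of the 19 S phase members. Of the 20 G2 and M phase members, 5 were highest in low-dose replicate 3 and 1 in high-dose replicate 2, against 10 in stress replicate 3. Myc, which drives growth and G1 progression, was at 0.06 for stress against control, 0.04 for low dose against stress, -0.21 for high dose against stress and -0.25 for high against low dose.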

How the data were processed

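Per the labels' protocols, poly(A) RNA was taken from total RNA of an integrity number over 7 and made into libraries marked for strand with dUTP, which were read from both ends. Per the submitters' processing notes the authors used cutadapt 1.9, HISAT2 2.0.4, StringTie 1.3.4d, DESeq2 and edgeR with the build GRCm38.p6; the annotation, the counting options and the use of strand are not given in the sources used here. The deposited expected counts are the authors' estimated counts per gene, unscaled; 11.7% to 12.5% of values per library were not whole and were rounded here. Whole counts had been assumed when the tests were chosen. FPKM, as deposited, is the authors' value per length and depth, and with the counts gave the gene lengths used here. TPM, as deposited, sums to the same total in each library by the authors' scaling, and is used to compare levels between genes.

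Genes were kept with filterByExpr at a minimum count of 10 (13453 genes). Scaling was by TMM, and the quasi-likelihood test of edgeR 4.0.16 (R 4.3.3) was fitted to all 12 libraries in 1 model with 4 groups (8 residual degrees of freedom, common dispersion 0.038), 2-sided, with p-values adjusted by Benjamini-Hochberg over all genes tested and a threshold of 0.05. Log2 CPM had a prior count of 2. Of contrasts there were 4: stress minus control, low dose minus stress, high dose minus stress and high minus low dose. The code was tested on simulated counts. The members, lists and tests were chosen with earlier results of these data known, so lists are described by counts and medians. Of the members, statistics are given per comparison for the 4 of each phase with the smallest p and always for Mki67, Top2a, Pcna, Mcm2, Ccnb1, Cdk1 and Ccne1; of other genes, for those that pass and for Cdkn1a, Cdkn1b, Ccnd1, Myc, Foxm1 and Mybl2. The alternatives tried were limma on log2(TPM + 1), limma-voom with sample weights (limma 3.58.1), DESeq2 1.42.0, a stricter filter (minimum count 50) or none, RLE scaling, a block for the replicate number, a fit to just the 6 libraries of a comparison, a skeletal muscle covariate, removal of each library's length trend by loess (span 0.3, genes with a mean log2 CPM above 1), and each library left out. Omission of the 3 muscle-rich libraries and the difference of the phase medians were added after the data were seen. No 2 libraries of the same group agreed within counting noise.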

Additional observations from a re-analysis of the deposited data

How the results depend on the processing

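No member passed an adjusted p of 0.05 in any comparison under any of the 23 alternatives, and the lowest adjusted p was 0.131 over the 52 pairs of gene and comparison chosen for statistics, and 0.125 (Aurka, low dose against stress, without low-dose replicate 1) over all members in that comparison. Of 1196 values of those 52 pairs under the alternatives, 1148 were within 1 SE of the value reported and 48 were not. These include fits without a library of neither group compared, in which a fold change can hardly move, so the count overstates the stability. The count of all genes called, 0 in edgeR for each comparison, was 1 for stress against control, 95 for low dose against stress and 5 for high against low dose in DESeq2. With each library left out in turn it ran from 0 to 1244 for low dose against stress and from 0 to 99 for high against low dose, the highest in both cases without low-dose replicate 1. The S phase median minus the G2 and M phase median was 0.17 for high dose against stress, 0.0745 there in limma-voom and 0.0807 to 0.207 with each library left out. For high against low dose it was -0.19, and -0.226 to -0.113 with each library left out. The cause of these shifts was not tested. Nothing in the labels pairs the replicate numbers: of 18 pairs with the same number 3 had a correlation of deviations over 0.1 (range -0.45 to 0.42), and 5 of 12 libraries correlated best with their own number. With the replicate number as a block 0 genes and 0 members were called in each comparison, and the medians for low dose against stress were 0.09 for S phase and -0.17 for G2 and M phase. With 3 libraries per group and member SEs of 0.13 to 0.27 on the log2 scale, differences of the size of the medians could not be resolved for single genes.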

Other observations

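A few regulators of the cycle are given here as values that were picked after being seen, and none passed the adjusted threshold. Btg1, an antiproliferative gene of the brakes list, stood at 130.0, 160.6 and 112 CPM under stress and 173, 219.5 and 227 at the low dose, without overlap, as in 5.37% of tested genes that were higher. Its log2 fold change was 0.62 (SE 0.14, edgeR adjusted p 0.266), and for high against low dose it was -0.47 (SE 0.14, edgeR adjusted p 0.758). Cdk6, a kinase partner of cyclin D, stood at 302, 267 and 262 CPM under stress and 233, 166 and 243 at the low dose. Its groups again did not overlap, as in 6.57% of tested genes that were lower. The log2 fold change of Cdk6 was -0.37 (SE 0.14, edgeR adjusted p 0.320).

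Cdkn2c, an inhibitor of the cyclin D kinases, was lowest in the libraries where the S phase genes were highest, at 48.9 CPM in low-dose replicate 3 and 64.7 in high-dose replicate 2, against 77.4 to 129.6 in the other 10 libraries. The 129.6 CPM was in stress replicate 3, which had an S phase score of 0.12 and the highest G2 and M phase score, 0.30. Stress replicate 2, with the lowest S phase score, stood at 90.4 CPM, so the other libraries did not follow that order. Cdkn2a, another inhibitor of those kinases, was at most 0.353 CPM in every library.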
